A study of Mus musculus with 36 samples.

Results

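The 9 genes described here are members of the Lin28, Igf2bp and Igf group, which sets the pace of growth in embryonic tissues: the RNA-binding proteins Lin28a and Lin28b, the mRNA-binding proteins Igf2bp1, Igf2bp2 and Igf2bp3, the chromatin protein Hmga2, the growth factor Igf2, the non-coding RNA H19 and the receptor Igf1r. They were taken by name, through the Ensembl identifier of each gene, from 3 deposited tables that together hold 30125 genes, and no measured value entered the choice. Of the 9 genes, 8 had a row among the 25760 genes of the wild-type table, 8 among the 26863 genes of the Ctnnb1 table and 9 among the 26472 genes of the Tcf/Lef table.

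The data are RNA sequencing of primary nephron progenitor cells (NPCs), the self-renewing cells that form the nephrons of the kidney, isolated from E16.5 mouse embryos and grown in nephron progenitor expansion medium. The medium contained CHIR99021 (CHIR), an inhibitor of the kinase GSK3β that stabilizes β-catenin and so mimics a Wnt signal, at 0 µM (no CHIR), 1.25 µM (low CHIR) or 5 µM (high CHIR). The question the doses address is which transcripts separate progenitors that keep dividing in low CHIR from progenitors that begin to differentiate in high CHIR, and the removals address whether β-catenin and its DNA-binding partners of the Tcf/Lef family are needed for the response. The wild-type table held 3 libraries for each of the 3 doses. In the Ctnnb1 table every group had 2 libraries, at low or high CHIR. Its Cre positive and Cre negative cells both carried the conditional β-catenin allele (β-catenin c/c), and its other cells carried Cas9-eGFP and received an sgRNA against Ctnnb1, the β-catenin gene, or against GFP. In the Tcf/Lef table all cells carried Cas9-eGFP and received either sgRNAs against Tcf7l1, Tcf7l2, Tcf7 and Lef1 (2 libraries at low CHIR and 3 at high CHIR) or a GFP sgRNA as control (3 libraries at each dose). Cells of both removal experiments were transfected together with mCherry mRNA, kept in low CHIR during the removal, moved to the final dose and sorted for mCherry, so their controls were transfected and sorted as well. Kidneys of several embryos were pooled and embryonic sex was not distinguished, and the mice were Swiss Webster or C57Bl/6. Nothing in the labels tells whether replicates came from separate cultures, so the p-values below measure only the spread between these libraries.

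Lin28a and Lin28b block the maturation of the let-7 microRNAs, and let-7 in turn pairs with the mRNAs of Lin28a, Lin28b, the Igf2bp genes and Hmga2 and lowers their output. In the fetal state Lin28 and the Igf2bp proteins are high and let-7 is low, and the balance turns as tissues mature. In the kidney, the gradual loss of Lin28b is known to accompany the end of nephron formation. Igf2bp proteins bind and stabilize mRNAs, Igf2 among them, and Igf2 acts through Igf1r. Igf2 and H19 are neighbours in an imprinted cluster in which Igf2 is transcribed from the paternal chromosome and H19 from the maternal chromosome.

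The let-7 family is shown first because its seed, bases 2 to 8 of the mature microRNA, is the shared feature through which it recognizes most members. In RefSeq (GRCm38.p6) 13 loci carry the seed GAGGUAG, in 11 different mature sequences, and let-7j carries another seed. The 13 were counted by seed alone, so they include miR-98 and miR-1961 beside the loci named let-7. The 2 microRNAs made from H19 are shown beside them. MicroRNAs were not measured in these libraries. Seeds are in capitals.
let-7a-5p (chr13:48538239-48538260, minus strand): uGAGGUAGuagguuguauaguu
let-7b-5p (chr15:85707325-85707346, plus strand): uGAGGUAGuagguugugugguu
let-7g-5p (chr9:106178846-106178867, plus strand): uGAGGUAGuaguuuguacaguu
let-7i-5p (chr10:122985698-122985719, minus strand): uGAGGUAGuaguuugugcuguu
miR-98-5p (chrX:151913229-151913250, plus strand): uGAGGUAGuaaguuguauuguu
let-7j (chr3:140028281-140028304, plus strand): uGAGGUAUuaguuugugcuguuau
miR-675-5p (chr7:142577112-142577133, minus strand): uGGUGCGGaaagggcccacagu
miR-675-3p (chr7:142577078-142577099, minus strand): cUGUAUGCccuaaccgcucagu

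The word CTACCTC, the complement of the let-7 seed, was searched on the transcribed strand of the 3′ UTR of each coding member (GENCODE vM21, GRCm38). For each gene the coding transcript with the most exonic bases in total was used, which need not have the longest 3′ UTR. Lin28b, Igf2bp1 and Hmga2 each had 4 matches, Lin28a and Igf1r each had 2, Igf2bp2 and Igf2bp3 each had 1, and Igf2 had 0. Among 21663 mouse genes, 8.55% had at least 1 match and 0.148% had 3 or more. Among the 10045 genes whose 3′ UTR is at least 1000 bases long, as all 8 of these are, the shares were 15.1% and 0.319%. The 3′ UTR of Igf1r also held 2 matches to the seed of miR-675-3p (GCATACA, present in 7.58% of all genes and in 14.2% of those with a 3′ UTR of at least 1000 bases). A match describes the sequence and is no evidence of binding. One match for each gene follows in capitals with its flanks, read from the build GRCm38, and all lie in a single exon.
Lin28a (chr4:134005186-134005211, minus strand): gcacagcctgttgaaCTACCTCattt
Lin28b (chr10:45381019-45381044, minus strand): acccgggcgggaagtCTACCTCatgc
Igf2bp1 (chr11:95961775-95961800, minus strand): gctgtgcgaagtaaaCTACCTCaagg
Igf2bp2 (chr16:22059470-22059495, minus strand): acacacaaataaaagCTACCTCaggt
Igf2bp3 (chr6:49086784-49086809, minus strand): tgcatttttactcaaCTACCTCaggt
Hmga2 (chr10:120364221-120364246, minus strand): gccgacattcaatttCTACCTCagca
Igf1r (chr7:68229110-68229135, plus strand): ttttcaaacatttatCTACCTCactc

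**Figure D1:**
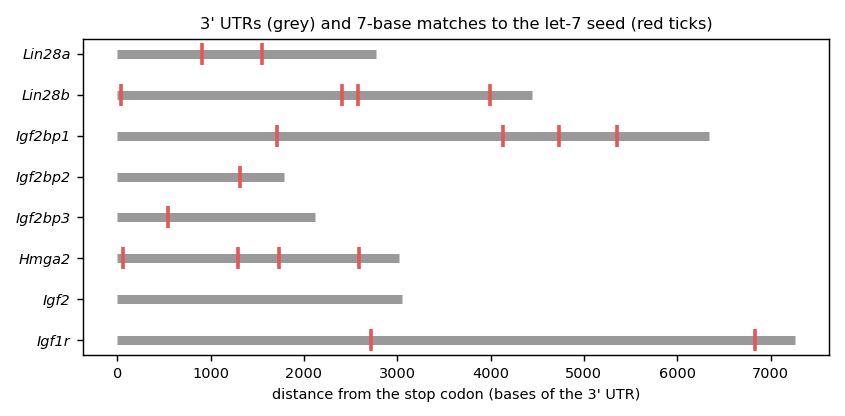
Each horizontal line is the 3′ UTR of 1 coding member, drawn to length in bases from the stop codon, and each mark is a match to the let-7 seed. Lin28b, Igf2bp1 and Hmga2 carry 4 matches each, Igf2bp3 carries 1, and Igf2 carries none.

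Values are normalized counts, the read count of a gene divided by the size factor of its library. Reads on genes ranged from 13651129 to 76071568 per wild-type library, from 14537850 to 27838106 in the Ctnnb1 table and from 13089780 to 20152719 in the Tcf/Lef table. Each difference below is a log2 fold change of normalized count plus 1, given with its standard error, and was called when its Benjamini-Hochberg adjusted p (limma, over all tested genes of the table) was below 0.05 and its size was at least 0.5. The 3 tables were normalized separately and no test was run across them. All 10 markers of the NPC list were detected in every group except Osr1, which was listed at 0 in the 3 wild-type libraries in high CHIR. The summed NPC markers were 18192 to 24019 in wild-type low CHIR and 4383 to 9799 in high CHIR, while the 8 induced nephron markers summed to 4405 to 8974 in low CHIR and 29290 to 40711 in high CHIR, with 7 of 10 NPC genes called lower and 5 of 8 induced genes called higher. Lists of other cell types moved with the doses too: the 7 ureteric epithelium markers with a row summed to 1127 to 1724 in wild-type low CHIR and 3710 to 8052 in high CHIR, the 7 endothelium markers to 80.2 to 192 and 673 to 1457, the 9 stroma markers to 11224 to 17019 and 3896 to 11489, and the 7 blood and immune markers with a row to 750 to 904 and 252 to 347. Of these lists, 3 of 6 tested ureteric genes were called higher in high CHIR, 1 of 8 stroma genes and 1 of 5 blood and immune genes lower, and of 6 endothelial genes Tek was called higher and Emcn lower. Their part in the members' results was not tested. In bulk RNA a smaller share of cells expressing a gene and less RNA per cell cannot be told apart.

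The targeted genes were read in every library. Ctnnb1 stood at 1652 and 1040 normalized counts with the Ctnnb1 sgRNA against 2521 and 3397 with the GFP sgRNA in low CHIR, and at 1630 and 1270 against 2632 and 2701 in high CHIR (log2 difference of -0.89 ± 0.23, adjusted p = 0.0429). Cre positive cells held 3085 and 2451 normalized counts of Ctnnb1 in low CHIR and 2254 and 2583 in high CHIR, against 3880 and 3097 and against 2423 and 2207 in Cre negative cells. The Cre groups thus overlapped in high CHIR, while in low CHIR the Cre positive libraries lay below the Cre negative ones. Cre removes part of the gene and the counts cover all its exons, so these counts cannot show how complete the removal was. With the Tcf/Lef sgRNAs in high CHIR, Tcf7 was lower by a log2 difference of -1.64 ± 0.31 (adjusted p = 0.0175), Lef1 had a log2 difference of -2.12 ± 0.65 (adjusted p = 0.131), and neither Tcf7l1 nor Tcf7l2 was called. With the replicate number as a block in limma, Tcf7 (adjusted p = 0.00385) and Lef1 (-2.12 ± 0.58, adjusted p = 0.0476) were called lower, and Tcf7l1 and Tcf7l2 again were not called. An sgRNA can disrupt a protein without lowering its mRNA.

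The members differed by orders of magnitude in level. Per kilobase of exon that no other gene shares, wild-type cells in low CHIR held 9121 ± 131 normalized counts of H19 (SD, n = 3), which made up 0.0988% to 0.104% of all reads on genes. Hmga2 followed with 512 ± 46.5 normalized counts per kilobase, then Igf2bp1 with 421 ± 65.3, Igf2bp2 with 317 ± 13.5, Igf2bp3 with 147 ± 3.11, Igf2 with 136 ± 17.7, Igf1r with 101 ± 17.6 and Lin28b with 0.320 ± 0.152. Neighbours in this order did not overlap in their libraries except Igf2bp3 and Igf2. In the Tcf/Lef control cells in low CHIR the order was H19, Hmga2, Igf2bp2, Igf2bp1, Igf1r, Igf2, Igf2bp3, Lin28a and Lin28b, and Igf2bp2 overlapped Igf2bp1, Igf1r overlapped Igf2, and Igf2 overlapped Igf2bp3. The level of Igf2 carries a condition: 3694 of its 5723 exonic bases lie inside other annotated genes, most of them in a same-strand read-through model (Gm49394). Reads there were left uncounted as ambiguous if the annotation used held that model, and if it did not, the value per kilobase is too high. Which holds could not be checked, so the place of Igf2 in both orders carries the same condition, as do its overlaps with its neighbours.

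**Figure D2:**
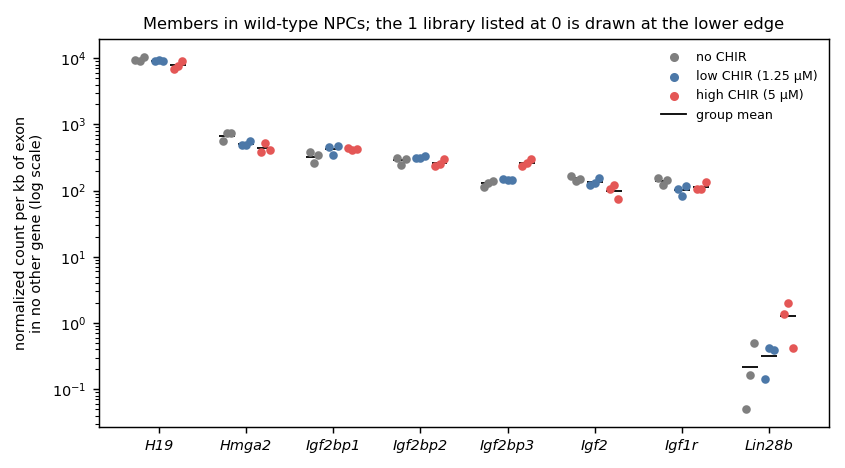
Normalized counts per kilobase of exon in no other gene, on a log axis, for the 8 members with a row in the wild-type table; points are the 3 libraries of each CHIR dose and lines are group means. H19 lies far above the other members and Lin28b far below them, with its 1 library listed at 0 drawn at the lower edge.

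Lin28a and Lin28b, the let-7 inhibitors that head the pathway, were close to undetected. Lin28b (chr10:45376620-45486395, minus strand) had 0, 1 and 4 reads in the wild-type libraries without CHIR, 1, 4 and 3 reads in low CHIR and 11, 13 and 4 reads in high CHIR. The high CHIR values reached 18.1 normalized counts, and 1 of the 3 overlapped the lower doses. In the Ctnnb1 table Lin28b ranged from 0 to 7.49 normalized counts and was listed at 0 in 9 of 16 libraries. In the Tcf/Lef table it ranged from 0 to 8.09. Lin28a (chr4:134003330-134018841, minus strand) had a row in the Tcf/Lef table only, where it ranged from 0 to 13.1 normalized counts and from 0 to 13 reads. In the other 2 tables no gene had fewer than 10 reads in total, so a gene below that total would have no row there. Both genes lay under the minimum mean of 10 normalized counts and were not tested, so no difference in them is called here. The other 7 members were tested in all 3 tables.

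Igf2bp3, a fetal mRNA-binding protein, was the member that rose with high CHIR in all 4 sets of control cells. In wild-type cells Igf2bp3 (chr6:49085223-49214957, minus strand, with 1529 of its 8159 exonic bases shared with Malsu1 on the other strand) stood at 762, 850 and 942 normalized counts without CHIR, at 999, 958 and 972 in low CHIR and at 1572, 1724 and 1975 in high CHIR. Every high CHIR library lay above every library of the other doses, and the low CHIR libraries lay just above those without CHIR. High CHIR exceeded low CHIR by 0.84 ± 0.14 on the log2 scale (1.79-fold, adjusted p = 0.00341), and Igf2bp3 was the 1 member of 7 called in this comparison, where 10.4% of the 17411 tested genes were called. High exceeded no CHIR by 1.04 ± 0.14 (adjusted p = 0.000508), in a comparison that called 23.4% of genes and 2 of the 7 members. The difference between no and low CHIR was -0.20 ± 0.14 (95% interval -0.51 to 0.10), and no member was called there, against 4.97% of genes. Replicate 3 in high CHIR differed from the other high CHIR libraries in several induction genes, and without it the high against low difference of Igf2bp3 was 0.75 (adjusted p = 0.00465).

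The transfected and sorted control cells gave the same direction for Igf2bp3. Cre negative cells held 605 and 617 normalized counts in low CHIR and 1269 and 1476 in high CHIR, a log2 difference of 1.16 ± 0.18 (adjusted p = 0.00109). With the GFP sgRNA in the Ctnnb1 table Igf2bp3 stood at 443 and 376 in low CHIR and 901 and 978 in high CHIR, a difference of 1.20 ± 0.18 (adjusted p = 0.000992). No library of one dose reached the range of the other in either control. The controls of the Tcf/Lef table held 165, 121 and 369 in low CHIR and 851, 510 and 940 in high CHIR, a difference of 1.92 ± 0.44 (adjusted p = 0.0108), again without overlap. Without low CHIR replicate 2, the lowest of those libraries, the difference was 1.58 and was no longer called (adjusted p = 0.0528). Each of these 3 controls called 2 of 7 members higher in high CHIR, Igf2bp3 and H19, against 8.05% of all tested genes in Cre negative cells, 7.51% in GFP sgRNA cells and 14.9% in the Tcf/Lef controls.

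**Figure D3:**
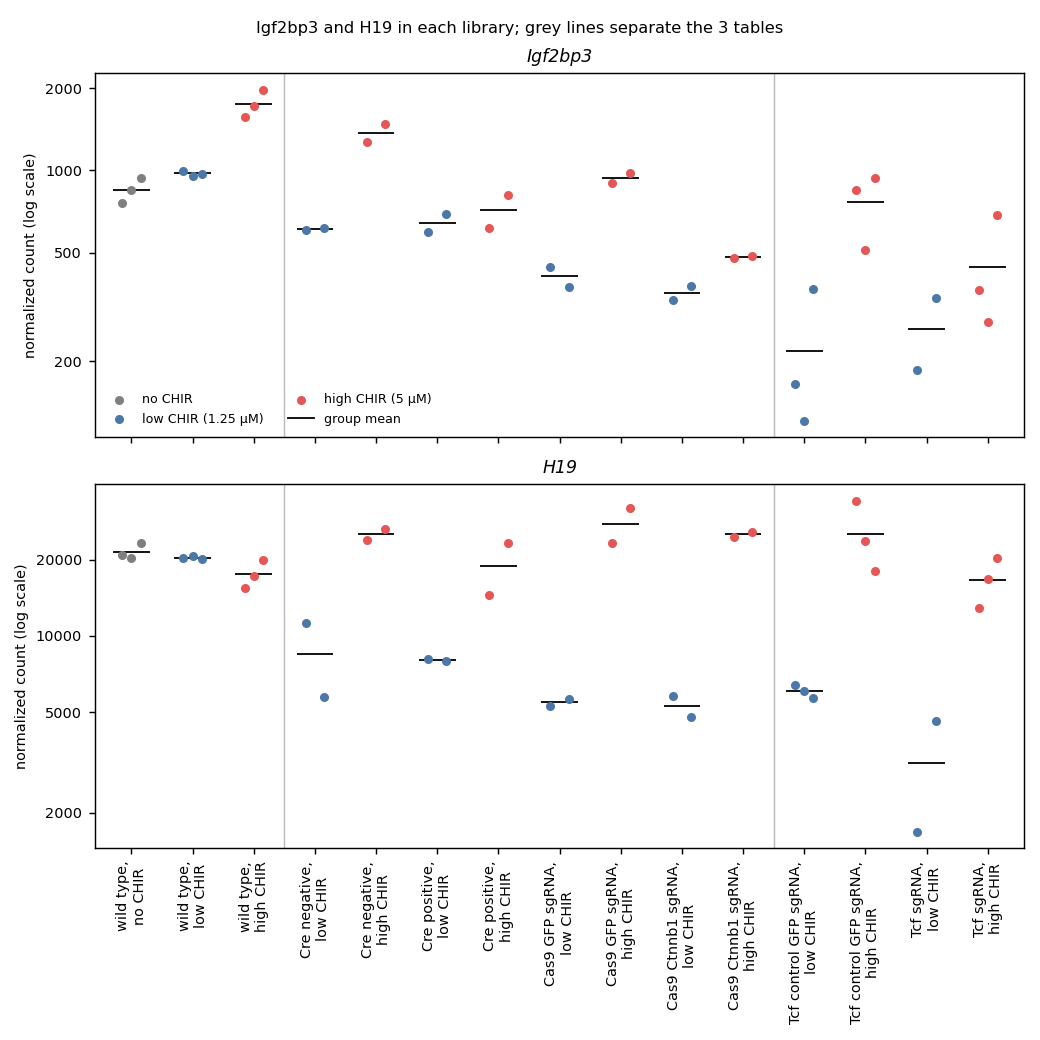
Normalized count of Igf2bp3 (top) and H19 (bottom) in each of the 36 libraries on log axes, grouped by treatment, with a bar at each group mean and grey lines between the 3 separately normalized tables. Igf2bp3 in high CHIR is above low CHIR in all 4 control sets and is below the high CHIR controls where β-catenin was removed, while H19 in high CHIR is above low CHIR in all transfected groups and below it in wild-type cells.

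Removal of β-catenin lowered Igf2bp3 in high CHIR by both methods. Cre positive cells held 615 and 815 normalized counts against 1269 and 1476 in Cre negative cells, a log2 difference of -0.95 ± 0.18 (1.93-fold lower, adjusted p = 0.00452). Ctnnb1 sgRNA cells held 480 and 486 against 901 and 978 with the GFP sgRNA, a difference of -0.96 ± 0.18 (1.94-fold lower, adjusted p = 0.00778). Groups did not overlap in either comparison, and Igf2bp3 was the 1 member of 7 called in each, where 8.65% of genes were called after Cre and 5.09% after Cas9. With 2 libraries a group the calls leaned on single libraries: without Cre positive replicate 1 the Cre difference was -0.75 (adjusted p = 0.0523), and with only the 4 compared libraries in the fit the adjusted p was 0.0878. Without Ctnnb1 sgRNA replicate 1 or 2, or GFP sgRNA replicate 2, the Cas9 difference ran from -0.97 to -0.90 with adjusted p of 0.0565, 0.0754 and 0.101. The 7 endothelium markers summed to 586 to 979 in Cre positive and 65.4 to 87.1 in Cre negative cells in high CHIR. In the Cas9 groups they summed to 651 to 1080 against 75.6 to 168. Only 2 genes of the list were tested, Emcn among them, and both were called higher. Most of the list was near the floor: 3 of the 7 had a mean under 10 in Cre positive cells and 4 in Cre negative cells. In Ctnnb1 sgRNA cells 5 did, and in GFP sgRNA cells 5. Cdh5 and Kdr were listed at 0 in the Cre negative cells. The 8 induced nephron markers summed to 3336 to 3684 against 19154 to 21511 after Cre and to 5611 to 8159 against 24169 to 25722 after Cas9. Their part in the Igf2bp3 difference was not tested.

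In low CHIR Igf2bp3 was not called after any removal. Cre positive cells held 596 and 690 normalized counts against 605 and 617, a log2 difference of 0.07 ± 0.18 (95% interval -0.32 to 0.46), and Ctnnb1 sgRNA cells held 336 and 377 against 443 and 376, a difference of -0.20 ± 0.18 (-0.59 to 0.19). The groups overlapped in both. These comparisons and those of the doses share their control libraries. No member was called in low CHIR after Cre, Cas9 or the Tcf/Lef sgRNAs, where 0.328%, 0.0536% and 0.0063% of genes were called. The test of the difference itself, the removal effect in high CHIR minus that in low CHIR, gave -1.02 ± 0.26 for Igf2bp3 after Cre (unadjusted p = 0.00151, adjusted p = 0.0961 by limma) and -0.76 ± 0.26 after Cas9 (adjusted p = 0.444). Neither passed, although the Cre value was called with DESeq2 (-1.02 with an adjusted p of 0.0192), and no member was called by limma in these tests, against 0.995% and 0.518% of genes.

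The response to the dose after β-catenin removal was added after the data had been seen. By immunostaining before the final dose, the paper measured a reduction of β-catenin in transfected cells with both methods, not a full loss. Between low and high CHIR Igf2bp3 differed by 0.14 ± 0.18 in Cre positive cells (95% interval -0.25 to 0.53) and by 0.44 ± 0.18 in Ctnnb1 sgRNA cells (0.05 to 0.83, adjusted p = 0.461). The matched controls had differences of 1.16 and 1.20, and the tests of the difference between them and the removals are those just given. Of the 7 members none was called in Cre positive cells, against 0.292% of genes, and H19 alone was called in Ctnnb1 sgRNA cells, against 0.763%.

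With the Tcf/Lef sgRNAs Igf2bp3 lay lower in high CHIR within each replicate number. Cells with the sgRNAs held 366, 279 and 686 normalized counts and the controls 851, 510 and 940 in replicates 1, 2 and 3, so each was below the control of its number although the 2 groups overlapped. The log2 difference of -0.84 ± 0.44 was not called (adjusted p = 0.418), and no member was, against 2.54% of genes. Libraries of this table with the same replicate number deviated together, and with the replicate number as a block the difference was -0.84 ± 0.18 and was called (adjusted p = 0.0176), the only member among 7, against 7.44% of genes. In low CHIR the sgRNA cells held 186 and 341 normalized counts and the controls 165, 121 and 369, a difference of 0.37 ± 0.49, or 0.07 ± 0.21 with the block (adjusted p = 0.964), where the block called no member and 0.101% of genes. The difference between the doses' effects was -1.21 ± 0.65 (95% interval -2.64 to 0.21) and was called neither without the block, against 0.126% of genes, nor with it (-0.92 ± 0.28, adjusted p = 0.226, against 0.857%). Within the sgRNA cells high CHIR exceeded low CHIR by 0.71 ± 0.49 (adjusted p = 0.567), and by 1.01 ± 0.21 with the block (adjusted p = 0.0179). That comparison, also added after the data were seen, called H19 alone against 2.54% of genes, and with the block Igf2bp3, H19 and Igf2 higher and Hmga2 lower, against 6.0%. The block also moved the control response of the Tcf/Lef table from 2 to 4 members, adding Igf2 and Igf2bp1, against 20.9% of genes.

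The sequence before the start of Igf2bp3 is shown because its transcript moved with the dose and with β-catenin. The word CTTTGAA and its close relatives, namely CTTTGAT besides the pair of words CTTTGTA as well as CTTTGTT, all of which Tcf/Lef factors are known to prefer, were searched on both strands of the 250 bases before each RefSeq start (GRCm38.p6), and 14.8% of 32851 mouse promoters held at least 1. Lin28a held CTTTGAA with its first base 72 bases before the start. Lin28b, Igf2bp2, Igf2bp3, Hmga2, Igf1r and the starts of Igf2 held none in this window, which says nothing of binding elsewhere, and Igf2bp1 and H19 had no entry.
Igf2bp3 (chr6:49214955-49215204, minus strand): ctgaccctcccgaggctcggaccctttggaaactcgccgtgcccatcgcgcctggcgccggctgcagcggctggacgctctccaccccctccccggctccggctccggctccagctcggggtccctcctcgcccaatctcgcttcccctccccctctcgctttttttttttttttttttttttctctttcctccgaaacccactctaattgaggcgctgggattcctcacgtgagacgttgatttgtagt

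Igf2bp1 and Igf2bp2 were called in none of the 15 planned comparisons, of which Igf2bp3 passed 7. Igf2bp1 (chr11:95957163-96005940, minus strand), the family member with 4 let-7 matches, stood at 3612, 2479 and 3277 normalized counts without CHIR, 4284, 3304 and 4461 in low CHIR and 4234, 3961 and 4092 in high CHIR. High and low CHIR overlapped (log2 difference of 0.04 ± 0.16, adjusted p = 0.915). In Cre negative cells the levels were 2288 and 3129 in low and 3638 and 4470 in high CHIR, without overlap but not called (0.59 ± 0.23, adjusted p = 0.144). In the Tcf/Lef controls it stood at 1557, 1703 and 2090 in low and 2196, 2344 and 3224 in high CHIR, a difference of 0.53 ± 0.23 (adjusted p = 0.149) that was called with the replicate block (adjusted p = 0.00597). After Cre in high CHIR, Igf2bp1 stood at 2328 and 3210, below both Cre negative libraries, with a difference of -0.56 ± 0.23 (adjusted p = 0.177). After Cas9 the difference was -0.05 ± 0.23. Igf2bp2 (chr16:22059009-22163299, minus strand) held 1711 to 2459 normalized counts over all 9 wild-type libraries, 1646 to 2523 over the 16 libraries of the Ctnnb1 table and 1181 to 1879 in the Tcf/Lef table. Its largest difference among them was a log2 value of -0.42 ± 0.16 between high and low CHIR in GFP sgRNA cells (adjusted p = 0.151).

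Hmga2, a chromatin protein with 4 let-7 matches, was lower at higher CHIR, the opposite direction to Igf2bp3, and passed the call in 1 comparison. Wild-type cells held 3713, 4875 and 4863 normalized counts of Hmga2 (chr10:120361275-120476469, minus strand) without CHIR, 3219, 3216 and 3752 in low CHIR and 2559, 3511 and 2696 in high CHIR. Every library without CHIR lay above every high CHIR library, while low CHIR overlapped both. High CHIR was lower than no CHIR by a log2 difference of -0.62 ± 0.16 (adjusted p = 0.0187). Leaving out no CHIR replicate 2, no CHIR replicate 3 or high CHIR replicate 1 ended that call, with adjusted p of 0.0608, 0.0814 and 0.0676 and differences of -0.55, -0.56 and -0.53. Between low and high CHIR Hmga2 stood at 2502 and 2070 against 1320 and 1678 in Cre negative cells, at 1878 and 2342 against 1472 and 1422 in GFP sgRNA cells, and at 2198, 2335 and 1825 against 1434, 1716 and 1370.5 in the Tcf/Lef controls. High CHIR was the lower dose in each of these sets, without overlap. The log2 differences were -0.61 ± 0.19 (adjusted p = 0.0719), -0.54 ± 0.19 (0.122) and -0.49 ± 0.13 (0.0253). None was called, the last because it lay just under the minimum size of 0.5, and without low CHIR replicate 3 or high CHIR replicate 2 it was called at -0.59 (adjusted p = 0.00899 and 0.0196). It was also called in the Tcf/Lef controls with TMM (-0.51, 0.0204) and edgeR (-0.51, 0.0211), and in Cre negative cells with DESeq2 (-0.61, 0.0468).

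Removals left Hmga2 uncalled. With the Tcf/Lef sgRNAs it stood at 1653 and 1535 normalized counts in low CHIR and at 1198, 1115 and 1160 in high CHIR, below every control library of the same dose in both. The log2 differences were -0.40 ± 0.15 (adjusted p = 0.904) and -0.37 ± 0.13 (adjusted p = 0.198, or 0.0691 with the block). After Cre in high CHIR it stood at 1831 and 2173 normalized counts, above both Cre negative libraries, with a difference of 0.42 ± 0.19 (adjusted p = 0.23), and after Cas9 the difference was -0.02 ± 0.19.

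**Figure D4:**
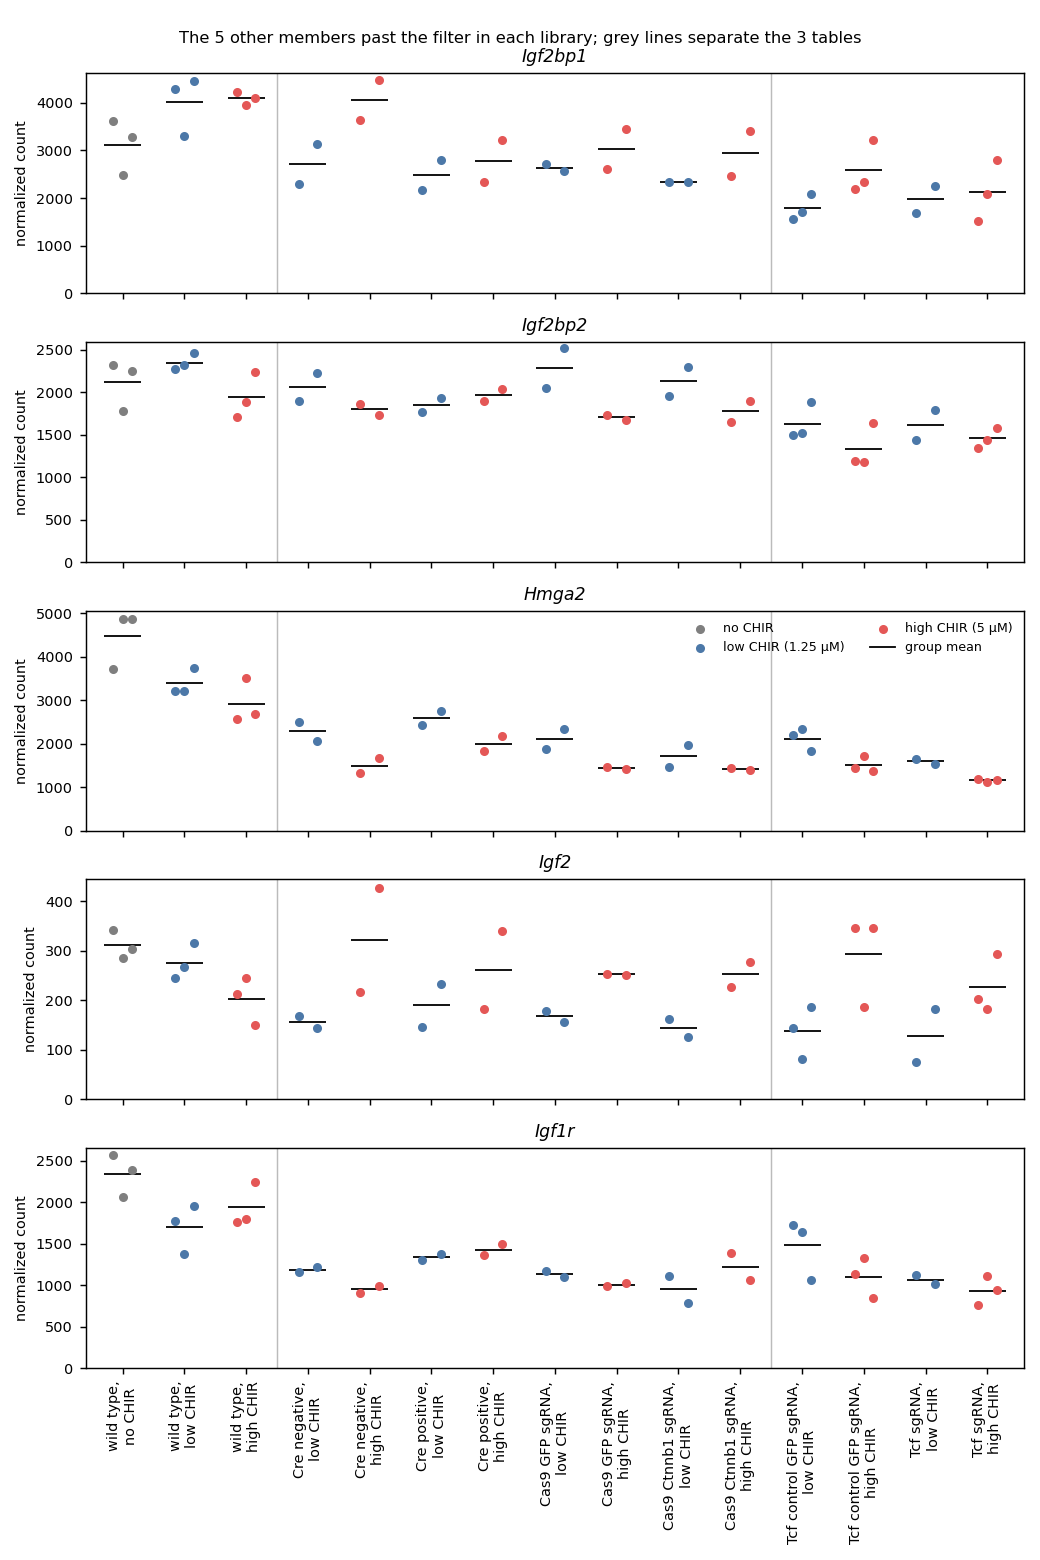
Normalized counts of Igf2bp1, Igf2bp2, Hmga2, Igf2 and Igf1r in each of the 36 libraries, with a bar at each group mean and grey lines between the 3 tables. Hmga2 is lower in high CHIR than in low CHIR in the transfected controls, and Igf2bp2 is called in no planned comparison.

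H19, the maternally expressed RNA that also encodes miR-675, behaved differently in wild-type and in transfected cells. Wild-type cells held 20833, 20319 and 23245 normalized counts of H19 (chr7:142575529-142578143, minus strand) without CHIR, 20404, 20667 and 20083 in low CHIR and 15434, 17187 and 19976 in high CHIR. The high CHIR libraries all lay below the low CHIR libraries, by a small margin that was not called (log2 difference of -0.23 ± 0.12, adjusted p = 0.298). In Cre negative cells H19 went from 11206 and 5721 in low CHIR to 23999.7 and 26582 in high CHIR, in GFP sgRNA cells from 5308 and 5628 to 23362 and 31944, and in the Tcf/Lef controls from 6418, 6078 and 5705 to 34222, 23821 and 18135. All 7 control libraries in high CHIR lay above all 7 in low CHIR within their sets. The log2 differences were 1.66 ± 0.29 (3.15-fold, adjusted p = 0.00242), 2.32 ± 0.29 (5.00-fold, adjusted p = 0.000213) and 2.02 ± 0.32 (4.05-fold, adjusted p = 0.00129). Between low and high CHIR the endothelium markers summed to 191 to 215 and 65.4 to 87.1 in Cre negative cells, 143 to 210 and 75.6 to 168 in GFP sgRNA cells, and 53.6 to 92.9 and 159 to 244 in the Tcf/Lef controls, with 2 of 2, 1 of 2 and 0 of 5 tested genes called lower and 2 of 5 called higher in the last. The ureteric markers summed to 422 to 547 and 1019 to 1095, 466 to 637 and 946 to 1125, and 329 to 388 and 955 to 1501 in the same sets. High CHIR replicate 1 of the Tcf/Lef controls stood apart with a blood and immune marker sum of 2936, against 30.9 to 195 in the other libraries of that table, and without it H19 differed by 1.78 (adjusted p = 0.0055) and Igf2bp3 by 1.82 (adjusted p = 0.0342). The part of the other markers was not tested.

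H19 was also higher in high CHIR after the removals. Ctnnb1 sgRNA cells held 5789 and 4791 normalized counts in low CHIR and 24713 and 25640.3 in high CHIR, a log2 difference of 2.26 ± 0.29 (adjusted p = 0.00183). Cells with the Tcf/Lef sgRNAs held 1688 and 4612 in low and 12923, 16803 and 20416 in high CHIR, a difference of 2.56 ± 0.36 (adjusted p = 0.00329). Both differences were called, and doses did not overlap. Cre positive cells held 8084 and 7937 in low and 14525 and 23294 in high CHIR, a difference of 1.20 ± 0.29 (adjusted p = 0.228, unadjusted p = 0.00106). In high CHIR the removals differed from their controls by -0.46 ± 0.29 after Cre, -0.12 ± 0.29 after Cas9 (95% interval -0.74 to 0.50) and -0.58 ± 0.32 with the Tcf/Lef sgRNAs, none of them called. In low CHIR the Tcf/Lef sgRNA libraries both lay below all 3 controls, a log2 difference of -1.12 ± 0.36 that was not called (unadjusted p = 0.00939, adjusted p = 0.904). As a share of reads on genes, H19 took 0.0988% to 0.104% in wild-type low CHIR libraries and 0.0105% to 0.0503% in the transfected libraries in low CHIR. In high CHIR the ranges were 0.0768% to 0.0908% and 0.0726% to 0.206%. Transfection, sorting, genotype and time in culture all differ between these sets and cannot be told apart.

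Igf2, the growth factor gene 72622 bases from H19, had the same sign as H19 in high against low CHIR in each set but was called in no planned comparison. Wild-type cells held 343, 285 and 304 normalized counts of Igf2 (chr7:142650766-142666816, minus strand) without CHIR, 244.4, 268 and 315 in low CHIR and 213, 244.3 and 150 in high CHIR. High CHIR lay below both other doses, although its highest library and the lowest low CHIR library, at 244.4, all but met. The difference was -0.46 ± 0.22 on the log2 scale against low CHIR (adjusted p = 0.214) and -0.64 ± 0.22 against no CHIR (adjusted p = 0.0537), which was called with TMM (0.0491), with DESeq2 (0.0354) and without high CHIR replicate 2 (-0.79, 0.0371). In transfected controls Igf2 was higher in high CHIR: 217 and 426 against 169 and 144 in Cre negative cells, 253 and 252 against 178 and 157 in GFP sgRNA cells, and 345, 186.1 and 347 against 144, 81.9 and 185.9 in the Tcf/Lef controls. In the last set the doses again all but met. The log2 differences were 0.96 ± 0.36 (adjusted p = 0.126), 0.59 ± 0.36 (0.376) and 1.11 ± 0.39 (0.0789, or 0.0053 and called with the replicate block, 0.0374 at 1.36 without low CHIR replicate 3, and 0.0291 with DESeq2). The removals differed from their controls in high CHIR by -0.29 ± 0.36 after Cre, -0.01 ± 0.36 after Cas9 and -0.34 ± 0.39 with the Tcf/Lef sgRNAs. Under the same condition these counts rest on the 2029 exonic bases of Igf2 that no other gene shares.

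Igf1r, the receptor for Igf1 and Igf2, was called in no planned comparison. It stood at 2562, 2058 and 2392 normalized counts without CHIR, at 1773, 1378 and 1956 in low CHIR and at 1765, 1802 and 2239 in high CHIR in wild-type cells (chr7:67952827-68233668, plus strand). Cells without CHIR held more than every low CHIR library, a log2 difference of 0.47 ± 0.17 (adjusted p = 0.132). After Cre in high CHIR Igf1r stood at 1357 and 1498 normalized counts against 909 and 988, without overlap. That difference of 0.59 ± 0.18 missed the call (adjusted p = 0.0655), and it passed with TMM scaling (0.046), edgeR (0.047) and DESeq2 (0.0421). After Cas9 in high CHIR the levels were 1385 and 1057 against 985 and 1023, a difference of 0.27 ± 0.18 (adjusted p = 0.457).

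**Figure D5:**
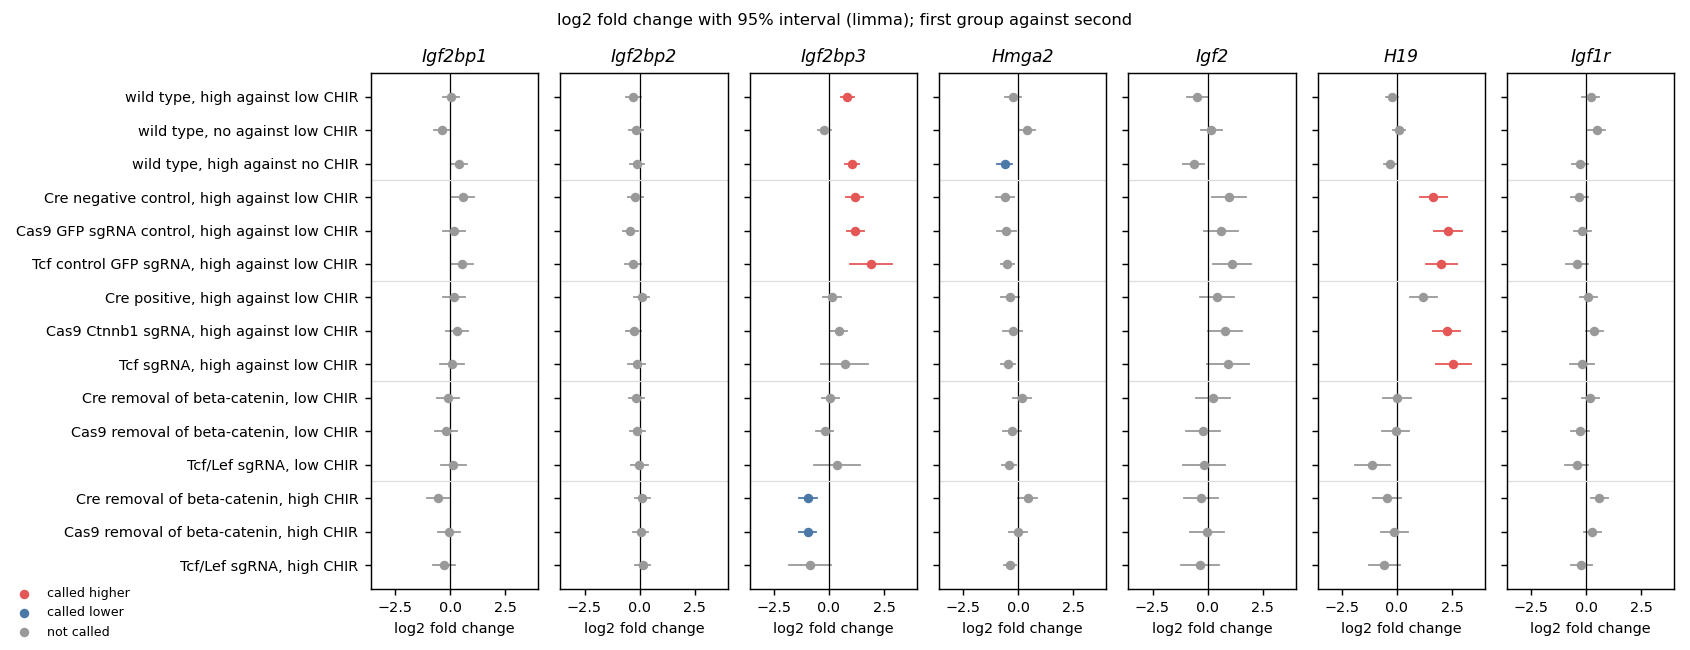
Log2 fold change of each tested member in each comparison, with 95% intervals. Red points were called higher and blue points called lower (adjusted p below 0.05 and size at least 0.5), and grey points were not called. Igf2bp3 is called in the 4 high against low CHIR controls and, lower, after both β-catenin removals in high CHIR. H19 is called higher in high against low CHIR in the 3 transfected controls, in Ctnnb1 sgRNA cells and in Tcf/Lef sgRNA cells.

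Across the 36 libraries, centred on the mean of each table, the genes most like each member were described by the Pearson correlation of log2 normalized counts among 14952 genes. The libraries share their doses and treatments, so these values describe shared movement only. Igf2bp3 was most like Sv2b (0.86), 2010111I01Rik (0.85) and Arid3b (0.85), H19 most like Bmp2 (0.88), Heyl (0.85) and Hunk (0.84), and Igf2 most like H19 (0.77), Tnnt3 (0.73) and Gm21451 (0.71). Igf2bp1 was most like Ninl (0.85) and Jade3 (0.81), Igf2bp2 most like Gm6768 (0.83), Ncoa4 (0.81) and Nedd4 (0.79), Hmga2 most like Qk (0.83), Fmnl2 (0.82) and Pank1 (0.82), and Igf1r most like Atxn2 (0.88), Lnpep (0.88) and Phlpp1 (0.87). Between members Igf2bp3 correlated at 0.71 with Igf2bp1, 0.65 with H19, -0.32 with Igf2bp2 and -0.45 with Hmga2.

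The machinery of let-7 and the other let-7 targets were read from lists. In wild-type high against low CHIR 10.4% of all tested genes were called, the share beside which the list counts of that comparison stand. Of 15 tested genes of let-7 processing and decay, Ago1, an Argonaute protein that carries microRNAs, rose from 445 to 653 normalized counts between wild-type low and high CHIR (log2 difference of 0.55, adjusted p = 0.0481), 14 were not called, and the list median was -0.07 against 0.01 for all genes. Of 22 other let-7 targets, 2 rose and 2 fell, with a median of 0.30: Arid3b, a DNA-binding protein, rose by 1.70 (142 to 463 normalized counts, adjusted p = 0.00214) and Hmga1, the paralogue of Hmga2, by 1.04 (3993 to 8035, adjusted p = 0.00537), while the proto-oncogene Mycn fell by 2.05 (2068 to 521, adjusted p = 0.000378) and Igdcc3 fell by 1.48 (178 to 70.1, adjusted p = 0.0316). Arid3b and Hmga1 also rose in the Tcf/Lef controls, by 1.50 (adjusted p = 0.0183) and 1.18 (adjusted p = 0.0114). Over the 3 transfected controls the targets counted 3 higher and 1 lower in Cre negative cells, 5 and 0 in GFP sgRNA cells and 7 and 2 in the Tcf/Lef controls, of 22 each, where 8.05%, 7.51% and 14.9% of all genes were called in either direction. After β-catenin removal in high CHIR they counted 1 higher and 4 lower after Cre and 1 higher and 2 lower after Cas9, against 8.65% and 5.09% of all genes, with Mycn lower in both (-2.05 and -1.15).

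The list of other Igf ligands, receptors and binding proteins had 1 of 9 tested genes called in wild-type high against low CHIR, where 10.4% of all tested genes were called. That gene was Igfbp3, a binding protein that holds Igf in the extracellular space, which went from 7.24 to 105 normalized counts (log2 difference of 3.37, adjusted p = 0.00647), and the list median was 0.80. In the transfected controls the same list had no gene called higher and 3, 1 and 1 called lower, against 8.05%, 7.51% and 14.9% of all genes called. After β-catenin removal in high CHIR it had 3 called higher after Cre and 2 after Cas9, against 8.65% and 5.09%. Of 24 tested genes of insulin and Igf signalling, 1 was called higher in wild-type high CHIR, Irs1, an adaptor of both receptors (48.0 to 166 normalized counts, log2 difference of 1.65, adjusted p = 0.0366), and the median was 0.04. In the transfected controls this list had 0 genes called higher and 2, 1 and 1 called lower, so the wild-type call of Irs1 was not repeated there. After β-catenin removal in high CHIR 2 genes were called higher after Cre and 0 after Cas9. Irs1 was higher in Cre positive than in Cre negative cells (1.17, adjusted p = 0.0211).

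Imprinted growth genes, the class to which Igf2 and H19 belong, had 2 of 21 higher and 2 lower in wild-type high against low CHIR, with a median of -0.41. In that comparison 10.4% of all tested genes were called. Peg3, a zinc finger protein expressed from the paternal chromosome, fell by 2.61 on the log2 scale from 8513 to 1408 normalized counts (adjusted p = 0.000802), and Ddc fell by 2.44 (adjusted p = 0.00241), while Phlda2 rose by 3.83 (13.4 to 418, adjusted p = 0.0214) and Snrpn by 0.90 (adjusted p = 0.0464). In the 3 transfected controls none of this list rose and 6 of 20, 7 of 20 and 6 of 19 tested genes fell (against 8.05%, 7.51% and 14.9% of all genes called), with medians of -0.89, -0.65 and -0.74, so H19, called higher in all 3, moved against the called genes of its class. After β-catenin removal in high CHIR 6 of 20 rose after Cre and 5 of 20 after Cas9, and none fell, where 8.65% and 5.09% of all genes were called. Peg3 was the clearest of them, higher by 2.63 after Cre (adjusted p = 0.0019), 2.27 after Cas9 (adjusted p = 0.00938) and 2.05 with the Tcf/Lef sgRNAs (adjusted p = 0.00181).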

How the data were processed

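The authors aligned the reads to the combined GRCm38 and GRCh38 assemblies with STAR, counted uniquely aligned unambiguous reads per gene with featureCounts and deposited size-factor normalized counts, a signal on a linear scale, in 3 tables of 36 libraries. The library kit does not mark strand, so reads from genes overlapping on opposite strands cannot be told apart. Their 8 tables of fold changes and p-values were not used. Dividing by the value of 1 read recovered whole reads for 100% of the values (tolerance of 0.1 read), on which edgeR called 1744 genes in wild-type high against low CHIR. Genes were matched to GENCODE vM21 by Ensembl identifier.

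Log2 of normalized count plus 1 was fitted by group with limma 3.58.1 (trend, R 4.3.3) on all libraries of a table, for genes with a mean of at least 10. Of the 7 tested members 105 values came from 15 planned comparisons, and 3 comparisons were added after seeing the data. edgeR 4.0.16 and DESeq2 1.42.0 on the recovered reads, TMM scaling, another pseudocount, no filter, a fold cut-off of 1, a replicate block, fits of only the compared libraries and leaving out each replicate were alternatives. The fits were tested on simulated data. In the Tcf/Lef table same-numbered libraries deviated together (correlations of 0.249 to 0.637 over all groups), and the numbers come from the sample titles, so the blocked fit is given beside results there. Libraries of unlike number were not correlated for comparison. The members and lists were chosen with earlier results of these data known. The text names all members, up to 4 called genes per list with the smallest adjusted p in wild-type high against low CHIR, the 3 genes most like each member, of which 1 is not reported here, and the targeted genes. Exceptions chosen after their values were seen are Osr1, Tek, Emcn, Cdh5 and Kdr.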

Additional observations from a re-analysis of the deposited data

Results flagged for a closer look

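The CHIR response of Igf2 and H19 had opposite signs in wild-type cells and in the transfected controls. Between high and low CHIR H19 differed by -0.23 on the log2 scale in wild-type cells, with all 3 high CHIR libraries below all 3 low CHIR libraries, and by 1.66 in Cre negative cells, 2.32 in GFP sgRNA cells and 2.02 in the Tcf/Lef controls, with every high CHIR library above every low CHIR library of its set. Igf2 differed by -0.46 in wild-type cells and by 0.96, 0.59 and 1.11 in the same 3 controls, with the same separation of libraries. That separation was a near tie for Igf2 in wild-type cells and in the Tcf/Lef controls, and a small margin for H19 in wild-type cells. By limma without the block, no Igf2 difference was called in any set, nor was the wild-type H19 difference. These values were singled out because the doses separated in every set, one way in wild-type cells and the opposite way in the controls. The share of all genes that separate in this way was not counted. The difference between the sets was not tested, since the tables were normalized separately.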

How the results depend on the processing

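No called value changed sign, while several uncalled differences near 0 did when 1 library was left out (wild-type high against low Igf2bp1 from -0.09 to 0.12, for example). A fold cut-off of 1 left 0 members called in wild-type high against low CHIR, 1 in high against no CHIR, and 0 after Cre and 0 after Cas9 removal in high CHIR. Cre removal in high CHIR called 2 members with TMM, 2 with edgeR and 2 with DESeq2 (Igf1r added), and 0 with only the compared libraries. Of all 16780 tested genes, edgeR called 1455 there and the fit of only the compared libraries called 624. DESeq2 called 1 member in Cre positive high against low CHIR (H19) and 1 in the Cre difference between doses (Igf2bp3), where it called 92 and 380 genes in all. Leaving out 1 library gave 1 to 3 members for wild-type high against no CHIR, 0 to 1 for Cre and for Cas9 removal in high CHIR, and 1 to 5 for the Tcf/Lef control response (1 without low CHIR replicate 2, and 5 without low CHIR replicate 3). With the replicate block, members called were 3 after Cre in high CHIR (Igf1r higher and Igf2bp1 lower added), 1 with the Tcf/Lef sgRNAs in high CHIR, 5 in Cre negative and 4 in Tcf/Lef control cells between doses, 4 in Tcf/Lef sgRNA cells between doses, and 1 in the Cre difference between doses. The block called many genes in all: in the same order 2639 of 16780, 1181 of 15878, 2661 of 16780, 3321 of 15878, 952 of 15878 and 526 of 16780. Same-numbered wild-type libraries had correlations of -0.0156 to 0.272, mostly below the 0.249 to 0.637 of the Tcf/Lef table, although the 2 ranges overlap. Libraries of unlike number were not correlated, so what unpaired libraries would give is not known. The Ctnnb1 table has only 2 a group (0.142 to 0.518), so its blocked values stand here only. The block also called Igf2bp1 and Igf2 higher and Hmga2 lower in Cre negative cells in high CHIR, and Hmga2 lower in GFP sgRNA cells (adjusted p = 0.0464), and it ended no call.

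Counts over all genes depended on the fit. With DESeq2 the calls went from 865 to 1762 for wild-type no against low CHIR, from 55 to 285, 9 to 28 and 1 to 24 for Cre, Cas9 and Tcf/Lef in low CHIR, from 854 to 1448 and 404 to 882 for Cas9 and Tcf/Lef in high CHIR, from 49 to 92, 128 to 304 and 403 to 872 for the dose within Cre positive, Ctnnb1 sgRNA and Tcf/Lef sgRNA cells, and from 167 to 380, 87 to 202 and 20 to 147 for the Cre, Cas9 and Tcf/Lef differences between doses. The block gave 513, 21 and 16 for the low CHIR removals, 2639 (from 1452), 2133 and 1181 for those in high CHIR, 2661 (from 1350) and 2562 (from 1260) for the Cre negative and GFP sgRNA dose responses, 128, 447 and 952 for the dose after removal, and 526, 235 and 136 for the differences. With only the compared libraries the counts were 1567 for wild-type no against low CHIR, 4, 0 and 0 for the low CHIR removals, 624 and 1728 for Cre and Cas9 in high CHIR, 552 for Cre negative and 0 for Cre positive cells between doses, 214 for Ctnnb1 sgRNA cells and 49 for the Cre difference. A fold cut-off of 1 gave 499 for no against low, 2662 (from 4070) for high against no CHIR and 1568 (from 2372) for the Tcf/Lef controls. No filter gave 4 for the Tcf/Lef sgRNAs in low CHIR, and a pseudocount of 0.5 gave 0 for Cas9 in low CHIR. Leaving out 1 library gave 995 to 2207 genes for wild-type high against low CHIR (1808 with all), 113 to 1032 for no against low, 2629 to 4346 for high against no, 838 to 972 for Cre and 204 to 421 for Cas9 removal in high CHIR, 157 to 480 for the Tcf/Lef sgRNAs in high CHIR, 18 to 303 for Cre, 0 to 1 for Cas9 and 0 to 4 for the Tcf/Lef sgRNAs in low CHIR, 13 to 28, 31 to 67 and 129 to 308 for the dose within Cre positive, Ctnnb1 sgRNA and Tcf/Lef sgRNA cells, 95 to 165, 29 to 61 and 4 to 50 for the differences, and 776 to 1724, 504 to 666 and 1545 to 3112 for the Cre negative, GFP sgRNA and Tcf/Lef control dose responses. The cause of these differences was not tested. Lin28a and Lin28b had at most 13 reads in any library. Lin28b had 0 reads in the deepest library, wild-type no CHIR replicate 1 with 76071568 reads on genes. Whether depth limits their detection was not tested.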
